A study of Rattus norvegicus with 18 samples.

Results

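*Htr2b* encodes a serotonin receptor, and its single row in the count table, the Ensembl transcript ENSRNOT00000023829, was followed through dorsal root ganglia (DRGs) of rats with and without knee surgery. It was 1 of 41078 transcripts in the table. It was chosen by its counts in these same rats, which were 0 in every naive rat and highest after total knee arthroplasty (TKA). Its differences between groups are therefore given as a description, without a p-value. mRNA was sequenced from the left L3 and L4 DRGs of 18 Sprague Dawley rats, with 1 library per rat, 6 rats per group, and each group had 3 rats with a male and 3 with a female label. Naive rats had no procedure. Sham rats were anesthetized, and the skin over the knee was cut and sutured, whereas TKA rats were anesthetized and had the knee joint replaced. DRGs of both operated groups were taken 24 h after surgery, so the sham group shared the anesthesia and skin wound with the TKA group, and neither group tells anesthesia apart from the incision.

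The Htr2b protein sits in the cell membrane and couples mainly to the G protein Gq. Serotonin binding activates phospholipase C, which releases calcium from internal stores and activates protein kinase C. The receptor is best known from heart valves, vascular and gastric smooth muscle, and the developing heart, and it has also been studied in sensory neurons in models of pain. DRGs hold the cell bodies of these neurons, each wrapped by satellite glia, together with axons, myelinating Schwann cells, vessels, connective tissue, and macrophages.

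The libraries held between 20230562 and 29343899 counts. Levels are given as CPM, the counts of a transcript relative to the size of its library, after TMM scaling over all 18 rats. All 7 named sensory neuron markers were counted in every rat, as the tissue label requires. TKA rat 2 stood apart from its group in cell type markers, with the lowest sensory neuron level of all 18 rats and the highest Schwann cell and skeletal muscle levels, and the main values that rest on it are also given without it. The library labelled female TKA rat 4 carried 3472 counts on 3 transcripts that were otherwise found in male rats, and it had 0 counts on the transcript found in the other female rats.

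*Htr2b* was not counted in any naive rat, was counted at low levels in 4 of the 6 sham rats, and was counted in all 6 TKA rats. The 6 naive rats had 0 counts each out of 130737978 counts in all. The sham rats had 2, 5, 20, 0, 0, and 10 counts, in the order of rats 1 to 6. The TKA rats had 36, 20, 114, 42, 34, and 20 counts in the same order. The lowest TKA count was therefore as high as the highest sham count, and each of the other sham rats had fewer. These values describe bulk tissue, in which fewer cells of a type and less RNA per cell cannot be told apart.

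Scaled for depth, the sham levels were 0.0958, 0.2, 0.874, 0, 0, and 0.401 CPM, a mean of 0.262 ± 0.335 CPM (SD, n = 6) and a median of 0.148 CPM. The TKA levels were 1.5, 1.04, 3.93, 2.01, 1.32, and 0.87 CPM, a mean of 1.78 ± 1.13 CPM (SD, n = 6) and a median of 1.41 CPM. In 5 of 6 TKA rats the level was above that of every sham rat, and the groups overlapped at TKA rat 6 and sham rat 3, whose levels had a ratio of 0.995. The counting error of these 2 rats was wide, with 95% exact Poisson intervals of 0.531 to 1.34 CPM and 0.534 to 1.35 CPM. The interval of TKA rat 3, 3.24 to 4.72 CPM, lay above the intervals of all other rats. Counting intervals do not include differences between rats, and reads of amplified libraries are not independent molecules.

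A count of 0 does not show that the receptor was absent from naive ganglia. Over the 6 naive rats, 3 counts would have been 0.0229 CPM, and within a single naive rat 3 counts corresponded to 0.128 to 0.146 CPM. Set against the group value of 3 counts, the TKA level was at least 80.8-fold higher than the naive level, and the sham level was at least 11.7-fold higher. The 2 sham rats without a count and sham rat 1, at 0.0958 CPM, were below what 3 counts would give in a naive rat, so these 3 sham rats were not distinguishable from naive rats at this depth.

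**Figure D1:**
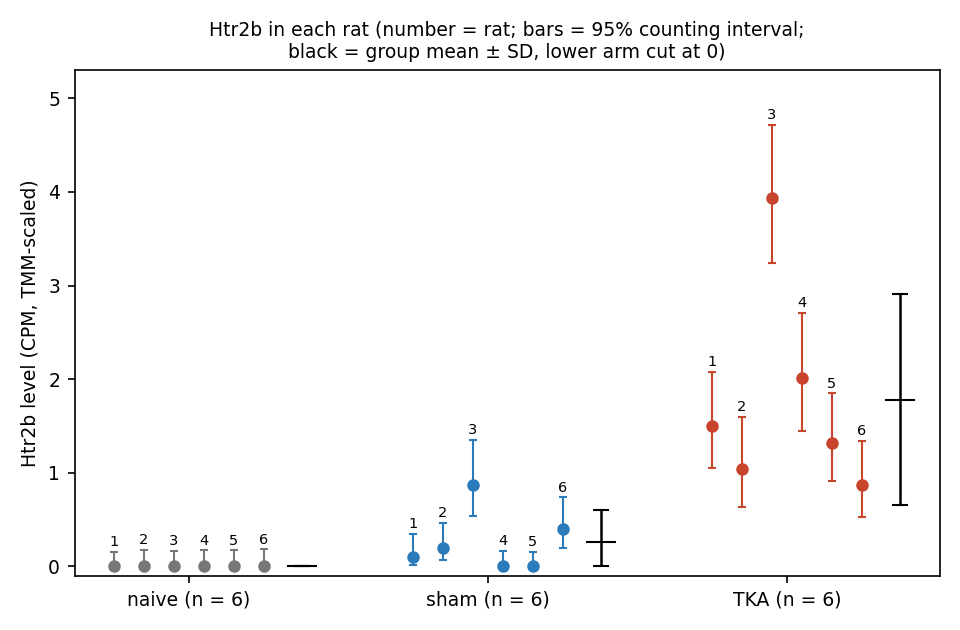
*Htr2b* level in each rat in CPM (vertical axis, linear) by group (horizontal axis). Points are single rats with their number and 95% exact Poisson interval, and the black marks are the group mean ± SD, cut at 0. The naive rats lie at 0, the sham rats between 0 and 0.874 CPM, and the TKA rats between 0.87 and 3.93 CPM.

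The mean TKA level was 6.79 times the mean sham level, and the ratio of medians was 9.53. From the pooled counts, 266 in TKA rats and 37 in sham rats, the ratio was 6.93 with a counting interval of 4.9 to 10.1. Rats numbered 3 carried much of both sums, as TKA rat 3 held 42.9% of the TKA counts and sham rat 3 held 54.1% of the sham counts. Without TKA rat 3 the ratio of means was 5.14, without sham rat 3 it was 12.7, and without both it was 9.66. Leaving out TKA rat 2, the library with the fewest neuronal and the most muscle transcripts, gave 7.35. The TKA mean was 1.35 ± 0.442 CPM (SD, n = 5) without rat 3, so most of the spread within the group came from that rat. On the log2 scale the fitted difference between TKA and sham rats was 2.74 (SE 0.86), and it was 3.00 (SE 0.88) with the level of the sensory neuron markers as a covariate, an alternative chosen after the data were seen.

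Few transcripts had this pattern. Of the 41078 transcripts, 17548 had no count in any naive rat, and 2667 of these were counted in some operated rat. Only 2 of them were counted in every TKA rat. *Htr2b* was the only one with at least 20 counts in every TKA rat. The other, ENSRNOT00000088196, which had no name here, had 1 to 9 counts in the TKA rats and up to 5 in sham rats. No transcript without a naive count was counted in every sham rat. The reverse pattern was as rare, with 2 transcripts counted in every naive rat and in no TKA rat. This pattern is part of what singled out *Htr2b* and is given as a description.

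Sex had no part in choosing the gene. Among sham rats, those labelled male had 0.39 ± 0.422 CPM and those labelled female had 0.134 ± 0.232 CPM (SD, n = 3 each, two-sided exact permutation p = 0.5). Among TKA rats, the corresponding levels were 2.16 ± 1.55 and 1.4 ± 0.572 CPM (SD, n = 3 each, two-sided exact permutation p = 0.6). These tests cannot give a p-value below 0.1. In a fit over the 12 operated rats with surgery as a covariate, the male to female difference was 1.01 on the log2 scale (SE 0.85, edgeR quasi-likelihood test, adjusted p = 0.981). It was 1.24 without the library labelled female TKA rat 4, and between 0.45 and 1.74 when each operated rat was left out in turn. No difference in *Htr2b* by labelled sex passed the test, and the spread between rats leaves a wide range of differences possible. The female label of TKA rat 4 went against its own sex-linked counts. This library is among the females in the TKA levels above, and no fit with it as male was run. In that fit 0 of 16357 transcripts were called (0%), 764 had an unadjusted p under 0.05, and DESeq2 called 22. Without the library labelled female TKA rat 4, 8 of 16902 transcripts were called. With the labels as given the fit called no transcript at all, so it cannot show that *Htr2b* was alike in both sexes.

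The other components of serotonin signaling were looked up in lists of receptors, of enzymes and transporters that make, move, and break down serotonin, and of Gq signaling. Names were at hand for few of them. Of 14 serotonin receptors, *Htr2b* was the only one with a name, so its level cannot be set beside those of the other receptors here. Named were 2 of 8 genes of synthesis, transport, and breakdown, and 6 of 22 genes of Gq signaling.

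None of these 8 transcripts passed the edgeR test in any comparison. A call needed a change of 1.5-fold or more and an adjusted p under 0.05 in edgeR, which called 13 of 15170 transcripts (0.0857%) between TKA and naive rats, 0 of 15320 (0%) between TKA and sham rats, and 0 of 15153 (0%) between sham and naive rats. Unadjusted p-values under 0.05 numbered 2605, 1355, and 625, and DESeq2 called 450, 68, and 5 transcripts in the same order. With so few calls over all transcripts, 0 calls among 8 says little about serotonin signaling.

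*Tph1*, the enzyme that limits serotonin synthesis outside the brain, had 10.6 ± 2.81 CPM in naive, 12.4 ± 3.37 CPM in sham, and 11.1 ± 5.44 CPM in TKA rats (SD, n = 6 each). TKA rat 2 had 0.727 CPM of *Tph1*, and without it the TKA mean was 13.2 ± 2.12 CPM (SD, n = 5). *Maob*, a monoamine oxidase of the outer mitochondrial membrane that degrades amines, had 80.8 ± 16.9, 84.9 ± 28, and 149 ± 115 CPM, and the highest TKA value, 353 CPM, was that of TKA rat 2. The *Maob* difference between TKA and naive rats was 0.88 on the log2 scale (SE 0.39, adjusted p = 0.271). Without TKA rat 2 the TKA mean was 108 ± 63.6 CPM (SD, n = 5) and the difference 0.41. Among the G protein subunits, *Gnaq*, the alpha subunit of Gq itself, had 135 ± 39, 124 ± 32.2, and 114 ± 31.1 CPM in naive, sham, and TKA rats. *Gna14*, a Gq family member, had means of 205, 199, and 181 CPM. TKA rat 2 had 54.2 CPM of *Gnaq* and 14.5 CPM of *Gna14*, and without it the TKA means were 126 and 214 CPM. *Gna12*, of another G protein family, had 200 ± 12.9, 224 ± 25, and 338 ± 198 CPM, a log2 difference between TKA and naive rats of 0.76 (SE 0.27, adjusted p = 0.197). TKA rat 2 had 722 CPM of *Gna12*, and without it the TKA mean was 262 ± 68.9 CPM (SD, n = 5) and the difference 0.38.

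Downstream, *Itpr3*, a calcium channel of the endoplasmic reticulum opened by inositol trisphosphate, had 295 ± 16.1, 312 ± 50.2, and 430 ± 180 CPM, a log2 difference of 0.54 between TKA and naive rats (SE 0.22, adjusted p = 0.232). TKA rat 2, at 713 CPM, was again the highest, and without it the TKA mean was 374 ± 129 CPM (SD, n = 5) and the difference 0.34. *Prkcb*, a protein kinase C, and *Arrb1*, an arrestin that binds activated receptors, had means in the 3 groups of 22.5, 19.7, and 20.8 CPM and of 75.8, 68.4, and 78.5 CPM. TKA rat 2 had 5.35 CPM of *Prkcb*, and the TKA mean without it was 23.9 CPM. The median log2 difference between TKA and naive rats over the 6 Gq transcripts was -0.03, with 3 higher and 3 lower, beside 0.02 over all transcripts tested. Without TKA rat 2 the differences were -0.11 for *Gnaq*, 0.06 for *Gna14*, 0.38 for *Gna12*, 0.34 for *Itpr3*, 0.08 for *Prkcb*, and 0.14 for *Arrb1*. The balance of higher and lower transcripts thus depended on that library. The ganglia of all 3 groups contained each of the other named transcripts of these lists. The 0 naive counts of *Htr2b* are what it was chosen for, so they do not set it apart from the pathway. Most members of the lists had no name and were not looked up.

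*Htr2b* was next compared with markers of ganglion cell types among the 12 operated rats. Levels were log2 CPM with a prior count of 2, the mean of each group was subtracted so that the difference that chose the gene played no part, and 7 lists were tested together. Across these rats *Htr2b* tended to rank higher where sensory neuron markers ranked higher. Of 23 listed sensory neuron markers only 7 had a name, and 3 of these were neurofilament genes, so the list covers neurons in part. The rank correlation with the 7 neuron transcripts was 0.68 (Spearman, permutation within groups, p = 0.00257, adjusted p = 0.018). Pearson's r was 0.34 (permutation p = 0.141, adjusted p = 0.462), so the relation passed by ranks and not by values. With a prior count of 0.5 it was 0.27. The rank correlation was not repeated with rats left out, and the r values that follow are Pearson's. Sham rats 1, 4, and 5 had 2, 0, and 0 counts of *Htr2b*, so their order rests on almost no reads. TKA rat 2 had a neuron level of 7.52 on the log2 scale against 8.86 to 9.37 in the other TKA rats, and r ranged from 0.24 without TKA rat 3 to 0.61 without TKA rat 2. Without TKA rats 2 and 3, which lay farthest from the median neuron level, r was 0.53. Within sham rats r was 0.62 (exact permutation p = 0.189), and within TKA rats r was 0.56 (exact permutation p = 0.224). TKA rat 2 lowered the TKA value, which was higher without it. The 5 TKA rats that remain are too few for an r of their own.

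**Figure D2:**
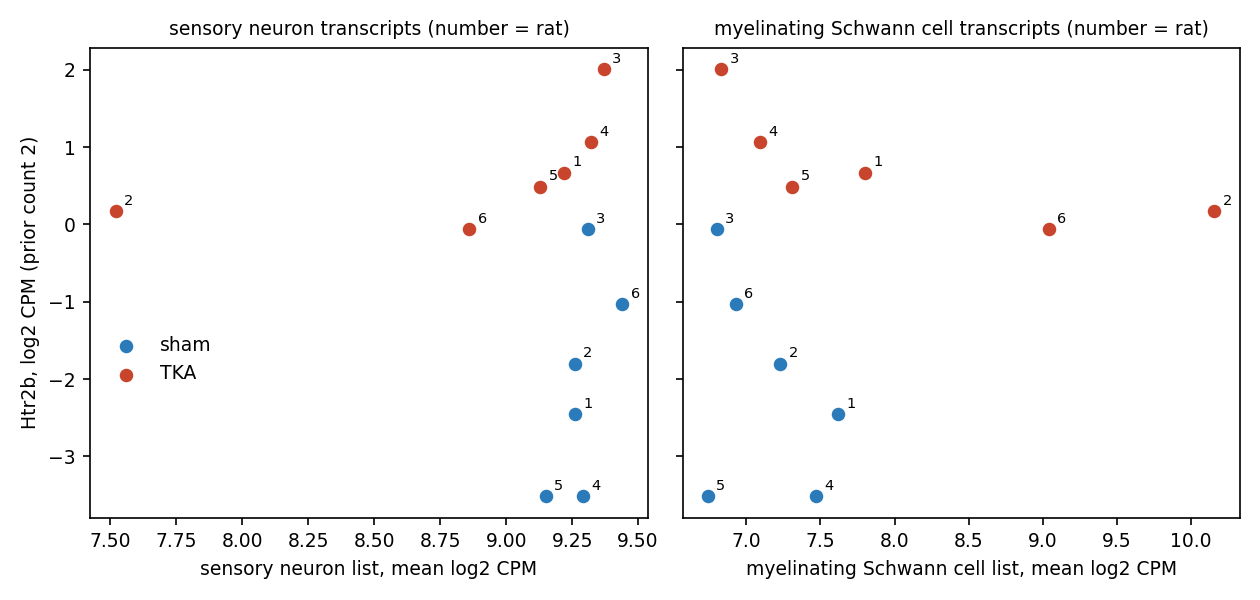
*Htr2b* (vertical axis, log2 CPM) against the mean log2 CPM of the sensory neuron list (left) and the myelinating Schwann cell list (right) in the 12 operated rats. Each point is 1 rat with its number. TKA rat 2 lies at a neuron level of 7.52 and a Schwann cell level of 10.16, and TKA rat 3 has the highest *Htr2b*.

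Within the neuron list the 3 neurofilament genes followed *Htr2b* most closely. Neurofilaments are the intermediate filaments of axons and are most abundant in large myelinated neurons. Over the 6 TKA rats, r with *Htr2b* was 0.82 for *Nefl*, 0.84 for *Nefm*, and 0.88 for *Nefh*, and over the 6 sham rats it was 0.50, 0.73, and 0.66. The peptide genes *Calca* and *Calcb*, of nociceptors, had r of 0.47 and 0.45 in TKA rats and 0.36 and -0.03 in sham rats. *Isl1*, a transcription factor of sensory neurons, had r of 0.32 in TKA rats and -0.58 in sham rats, and *Ntrk3*, the receptor of proprioceptors, had -0.20 and 0.24. These values for single genes are descriptions over 6 rats that share their libraries.

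The neurofilament genes had lower, not higher, mean levels in the group in which *Htr2b* was highest. *Nefm* had 14100 ± 1800 CPM in naive, 13300 ± 1560 CPM in sham, and 9540 ± 2620 CPM in TKA rats (SD, n = 6 each), a log2 difference of -0.57 between TKA and naive rats that did not pass (SE 0.19, adjusted p = 0.179). The summed level of the 7 neuron transcripts ranged from 35800 to 46800 CPM in naive, 35000 to 44400 CPM in sham, and 17500 to 39900 CPM in TKA rats. None of the 7 neuron transcripts was called by edgeR in any comparison. The highest summed neuron levels were in the group with no *Htr2b* count, whereas within the operated groups *Htr2b* ranked higher in rats with more of these transcripts.

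Myelinating Schwann cell markers ran the other way, but that relation did not pass after adjustment. Over the 12 rats Pearson's r was -0.44 (permutation p = 0.0467, adjusted p = 0.327) and Spearman's rank correlation was -0.51 (permutation p = 0.0574, adjusted p = 0.182). Without TKA rats 2 and 6, the farthest from the median, r was -0.45, and without TKA rat 2 alone it was -0.48. Within sham rats r was -0.38 (exact permutation p = 0.431), and within TKA rats it was -0.76 (exact permutation p = 0.0681). All 8 Schwann cell transcripts had a negative r with *Htr2b* over the TKA rats, from -0.88 for *Mag*, a myelin adhesion protein, to -0.57 for *Egr2*, the transcription factor of myelination. Because the levels are shares of a library, more transcripts of 1 cell type leave fewer of another, and the neuron and Schwann cell relations are not independent of each other.

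The highest summed level of every non-neuronal list was that of 1 library, TKA rat 2. The summed level of the 8 Schwann cell transcripts ranged from 6760 to 11600 CPM in naive, 7540 to 17800 CPM in sham, and 10500 to 94700 CPM in TKA rats. The 4 skeletal muscle transcripts summed to 18.4 to 247, 20.4 to 608, and 33.2 to 8540 CPM, and 1 of them, *Mb*, was at 0 in some naive and sham rats. The 5 satellite glia transcripts summed to 902 to 1190, 828 to 1640, and 1120 to 5270 CPM, with *Apoe* at 0 in some TKA rats. The 8 macrophage transcripts summed to 109 to 225, 79.2 to 382, and 198 to 796 CPM. The 4 fibroblast transcripts summed to 237 to 433, 218 to 460, and 422 to 1150 CPM, and the 2 endothelial transcripts to 45.1 to 68.9, 51 to 85.9, and 62.6 to 395 CPM. Without TKA rat 2 the highest TKA sums were 52400 CPM for Schwann cells, 901 CPM for skeletal muscle, 973 CPM for fibroblasts, and 213 CPM for endothelial cells, each still above every sham rat. Apart from skeletal muscle, these were sums of TKA rat 6. The next endothelial sum, 75.2 CPM in TKA rat 5, was below the highest sham rat. TKA rat 1 was above every sham rat for Schwann cells (18200 CPM) and fibroblasts (616 CPM). The lowest TKA sum of each of these 4 lists was below the highest sham rat. The highest TKA sums without rat 2 were 1540 CPM for satellite glia and 336 CPM for macrophages, each below the highest sham rat. In edgeR none of these transcripts was called in any comparison, whereas DESeq2 called 12 between TKA and naive rats and 3 between TKA and sham rats. Their part in the group difference of *Htr2b* was not tested. Within TKA rats the 2 libraries richest in Schwann cell transcripts, TKA rats 2 and 6, had the lowest *Htr2b* levels, and TKA rat 3, the highest in *Htr2b*, had 11000 CPM of them, close to the lowest TKA sum of 10500 CPM in rat 4.

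No relation with the other 5 lists passed. For satellite glia, r was -0.12 (permutation adjusted p = 0.842) and the rank correlation was -0.13 (adjusted p = 0.747). For macrophages, both were 0.20 (permutation adjusted p = 0.842 and 0.747). For fibroblasts, r was 0.04 and the rank correlation was -0.02 (permutation adjusted p = 0.882 and 0.94). For endothelial cells, r was -0.30 and the rank correlation was -0.46 (permutation adjusted p = 0.462 and 0.182), and for skeletal muscle they were -0.08 and -0.19 (permutation adjusted p = 0.882 and 0.747). Some of these pooled values cover opposite signs in the 2 operated groups. For fibroblasts r was 0.72 in sham rats and -0.66 in TKA rats, and for macrophages it was 0.50 and -0.43, a difference that was not tested. Without the 2 rats farthest from the median, r was -0.26 for satellite glia, 0.61 for macrophages, 0.22 for fibroblasts, -0.03 for endothelial cells, and -0.32 for skeletal muscle. Markers of smooth muscle, pericytes, and mast cells, in which this receptor or serotonin itself is known, had no name here.

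**Figure D3:**
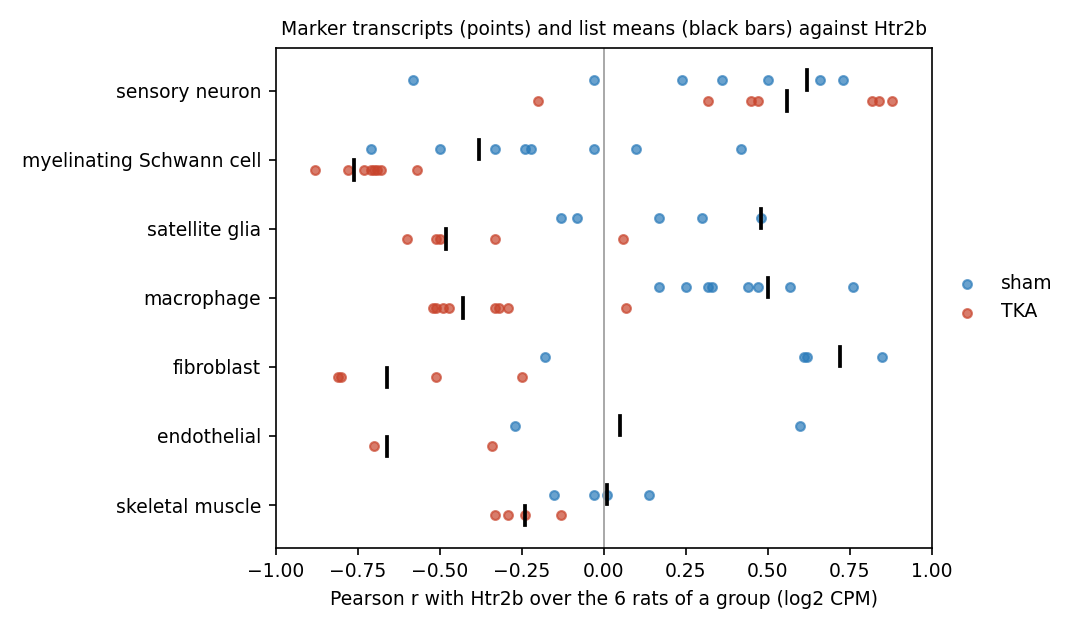
Pearson r (horizontal axis) between *Htr2b* and each marker transcript (points) over the 6 sham rats (blue) or the 6 TKA rats (red), by marker list (vertical axis). Black bars are the r of the list mean. All 8 Schwann cell points of TKA rats lie below 0, and the 3 highest neuron points of TKA rats, from 0.82 to 0.88, are the neurofilament genes.

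Over all 18 rats, the transcript most like *Htr2b* was *Tubb6*, a beta tubulin (Pearson r of log2 CPM = 0.93, over 16047 transcripts compared). It had a median of 19.5 CPM in naive rats (18 to 23.8), 22.2 CPM in sham rats (18.4 to 33.4), and 42.5 CPM in TKA rats (32.5 to 54.3). Unlike *Htr2b*, it was present in every naive rat. *Tubb6* was also among the closer ones within groups, with r of 0.74 over the group-centred operated rats. The next most like were *Pbxip1* (0.87), *Fam210b* (0.86), *Ifitm3*, *Pvr*, and *Adamts1* (0.84 each), *Cdkn1a*, *Socs3*, and *Vgf* (0.83 each), and *Cldn1* (0.82). Only 18 transcripts reached 0.8, and 1 reached 0.9. All 10 have a name, while 3241 of the compared transcripts do. Names came from the study's own comparisons of these groups, so having a name may not be independent of a group difference. Because a high r over 18 rats mostly reflects the same order of groups, and that order chose *Htr2b*, no p-value is given.

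These 10 genes have varied known roles. *Socs3* is an inhibitor of cytokine signaling induced by that signaling, and it had a median of 4.54 CPM in naive, 7.46 CPM in sham, and 16.4 CPM in TKA rats. *Vgf*, the precursor of secreted neuropeptides, had medians of 28.8, 53.8, and 98.5 CPM. *Cdkn1a*, an inhibitor of the cell cycle, had medians of 3.91, 5.02, and 11.6 CPM. All 10 had an intermediate sham median, as *Htr2b* did, which largely follows from choosing them by r over 18 rats. *Ifitm3* is an interferon-induced membrane protein, *Adamts1* a secreted protease, *Cldn1* a tight junction protein, and *Pvr* a cell adhesion receptor. TKA rat 3 had the highest level of the TKA rats for *Htr2b*, *Tubb6*, *Ifitm3*, *Adamts1*, *Pvr*, and *Socs3*. It was not the highest for *Pbxip1*, *Vgf*, *Cdkn1a*, *Fam210b*, or *Cldn1*. For the last 2 it was below the TKA median, at 25.2 against 27.3 CPM and 31.5 against 39.8 CPM.

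**Figure D4:**
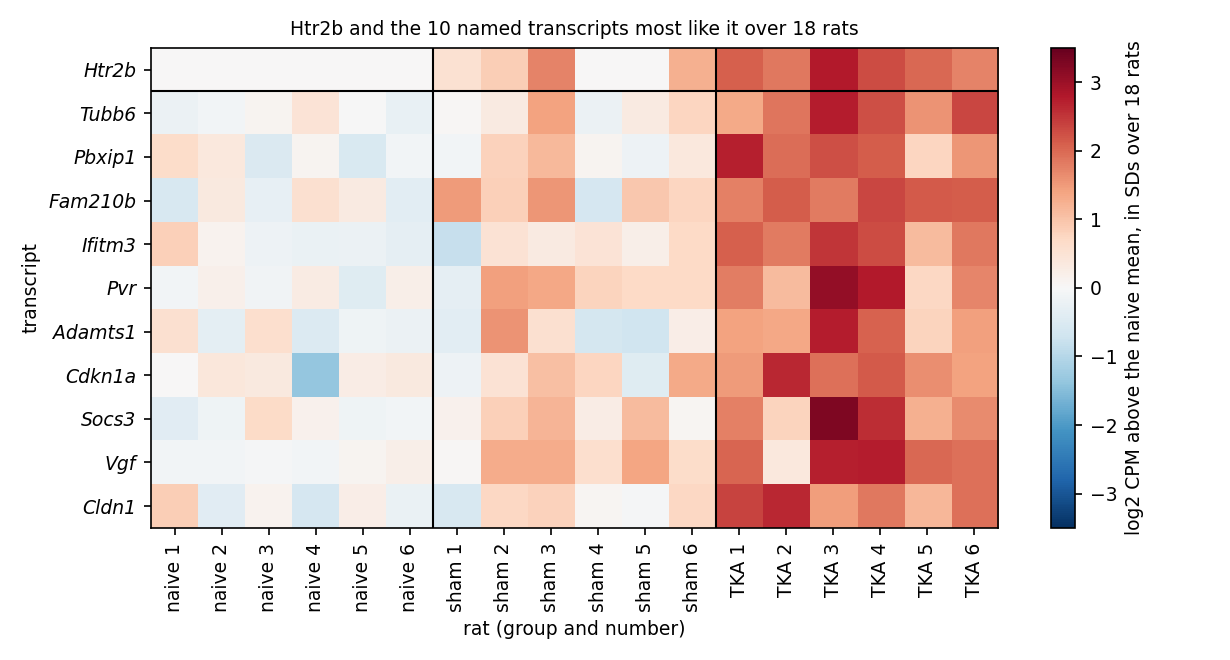
*Htr2b* (top row) and the 10 named transcripts most like it (vertical axis) in the 18 rats (horizontal axis). Color is log2 CPM above the naive mean in units of the SD over 18 rats, with red above and blue below. *Htr2b* has no color in the naive rats, where every count was 0, and the 6 TKA columns are red for *Htr2b* and *Tubb6*.

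Among the 12 operated rats with group means removed, other transcripts were most like *Htr2b*. Of 16047 transcripts compared, 16 reached 0.8. With so many compared over 12 rats, values this high can arise by chance, and no p-value is given. Of the 10 with the highest r, 3 had a name. These were *LOC103691238* (0.86), *Igfbp5*, a binding protein of insulin-like growth factors (0.84), and *Tbx6*, a T-box transcription factor (0.84). Next among named transcripts were *Cilp*, *Oca2*, *Tyro3*, and *Shisa3* (0.80 each), *Slc4a2* (0.78), and *Slc25a25* (0.77). *Tbx6* and *Oca2* were themselves near the limit of detection, with 0 counts in some naive rats. *Igfbp5* had a mean of 365 ± 129 CPM in naive, 350 ± 201 CPM in sham, and 229 ± 22.8 CPM in TKA rats, so it did not share the order of groups, and its r over all 18 rats was -0.10.

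The sequence before the start of *Htr2b* is shown because the gene went from no count to a count in every TKA rat. RefSeq places these 250 bases on the minus strand of the GRCr8 assembly at chr9:94204088-94204337, a different build from the rn6 of the counts. They are printed 5′ to 3′ in lower case because none of the motifs searched, which would be in capitals, was found.
*Htr2b* promoter: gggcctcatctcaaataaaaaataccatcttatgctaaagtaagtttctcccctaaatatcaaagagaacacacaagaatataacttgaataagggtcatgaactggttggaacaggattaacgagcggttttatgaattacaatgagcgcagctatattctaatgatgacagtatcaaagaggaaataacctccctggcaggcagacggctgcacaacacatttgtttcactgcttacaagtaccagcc
The motifs were searched on both strands as TGACGTCA and its core TGACG (cyclic AMP response element, the core lying within the full site), TGANTCA (AP-1), TTCNNNGAA (STAT), GCGTGGGCG (EGR), ACANNNTGT (glucocorticoid receptor), TATAAA (the box bound by TBP), and CCAAT (bound by NF-Y), and the serum response element was searched as well. Over 33469 promoters of the same length, the share with each motif spelled out was 1.59%, 18.2%, 6.34%, 7.67%, 0.478%, 5.81%, 12.9%, and 34%, in that order. Of the 10 transcripts most like *Htr2b*, 9 had a promoter in the same source. The motifs spelled out were in 1, 4, 1, 1, 0, 0, 2, and 3 of these 9, in the same order. Whether these counts differ from the shares over all promoters was not tested. The *Htr2b* window had a GC content of 39.6%, and the median promoter had 51.2%. That a motif was not found says only that those letters are not in these 250 bases.

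In the RefSeq annotation *Htr2b* lies wholly within *Psmd1*, a proteasome subunit gene on the opposite strand, and no other gene overlaps it. Whether strand was used in counting is not given in the sources used here, and without strand reads of the 2 genes in shared exons could not be told apart. The naive rats had 0 counts on *Htr2b*.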

How the data were processed

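Each of the 18 rats gave 1 library. The authors aligned 150 bp paired-end reads to the rn6 genome with HISAT2 and then ran featureCounts. The deposited values are raw counts for each Ensembl transcript, not normalized, which the authors tested with DESeq2. Versions, annotation, and strand settings are not given in the sources used here. Reads shared by isoforms or overlapping genes can be lost or misassigned.

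Group, rat number, and sex came from the sample labels. Gene names came from a shortened supplementary table of the study's group comparisons that named 3837 of 41078 transcripts. Each pair of groups was fitted alone in edgeR 4.0.16 (R 4.3.3) with filterByExpr, TMM, and the quasi-likelihood test with Benjamini-Hochberg adjustment, tested on simulated data. DESeq2 1.42.0 was an alternative, as were other scalings, no filter on low counts, sex, a replicate block, a single fit of all groups, another prior count, and leaving out each rat. A standard error is the size of the log2 difference over the square root of its F statistic. Correlations were permuted 100000 times within groups, and exactly within 6 rats. CPM used TMM factors over 18 rats. Of 16048 transcripts kept over 18 rats, 16047 were compared with *Htr2b*.

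*Htr2b*, the gene lists, and the tests were chosen with earlier results of these data known. Named genes are *Htr2b*, the named members of the lists, the 10 named transcripts with the highest r with *Htr2b* over 18 rats and the 10 over the operated rats (1 of these is not reported here), and named transcripts with no naive count and a count in every TKA rat. Where a symbol had several transcripts, the most abundant by mean count was kept.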

Additional observations from a re-analysis of the deposited data

Results flagged for a closer look

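A value was looked at again where the highest or lowest rat of a group of 6 lay far from the rest by Dixon's criterion. Of 30 groups of values compared, 5 met it, and chance gives about 1.5. *Htr2b* itself was 3.93 CPM in TKA rat 3, and the next TKA rat had 2.01 CPM. TKA rat 3 was also the deepest library, at 29343899 counts, and CPM takes this depth into account. The remaining values are mean log2 CPM of a list. In 3 of them TKA rat 2 stood apart: its Gq signaling level was 6.13 (nearest 6.96), its sensory neuron level 7.52 (nearest 8.86), and its satellite glia level 7.74 (nearest 5.75). Its *Htr2b* level, 1.04 CPM, was within the range of the other TKA rats. The level of the 2 transcripts of serotonin synthesis, transport, and breakdown was 5.22 in naive rat 5, and the nearest naive rat had 4.88.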

How the results depend on the processing

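Of 211 alternatives over 16 results, 197 kept both the direction and the side of the threshold. Counts of calls had to stay within 1.5 times, and values without a test had to move by less than 1 SD. Some of the 197 could not have come out otherwise, so this number does not measure how stable the results are. Leaving out 1 rat cannot move the mean of its group by 1 SD. The naive mean of *Htr2b* was 0 in every alternative, and the gene was chosen for its 0 naive counts. The rule was also wide for the TKA to sham ratio of means, where 12.7 without sham rat 3 counted as kept beside 6.79. Between TKA and naive rats, list transcripts called were 0 in the reported fit, 12 with DESeq2 (*Pmp22*, *Mag*, *Mal*, *Egr2*, *Gfap*, *C1qb*, *Lyz2*, *Col1a2*, *Dcn*, *Lum*, *Acta1*, and *Mb*), 1 with all 3 groups in one fit, 1 with the sensory neuron level as a covariate (chosen after seeing the data), and 0 to 1 when each rat was left out, the 1 being *Gfap* without TKA rat 2 or TKA rat 5. Between TKA and sham rats DESeq2 called 3 (*Egr2*, *C1qc*, and *Dcn*). The causes were not tested. Correlations with *Htr2b* that changed sign when a rat was left out ranged from -0.28 to 0.16 for satellite glia, -0.02 to 0.39 for macrophages, -0.14 to 0.24 for fibroblasts, and -0.36 to 0.08 for skeletal muscle.

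Rats of the same number deviated together little (correlations of -0.05 to 0.22 between groups), and they were treated as unpaired. Such correlations cannot exclude that rats of the same number were handled together. With the rat number as a replicate block, 0 list transcripts were called in any comparison, calls over all transcripts between TKA and naive rats went from 13 to 1, and the *Htr2b* difference between TKA and sham rats was 3.31 on the log2 scale (SE 0.95). At 20230562 to 29343899 counts per rat, 3 counts of *Htr2b* were 0.103 to 0.156 CPM, so levels below this could not be told from 0 in a single rat.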

Other observations

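Among the marker transcripts, *Gfap*, the intermediate filament of glia, had the largest difference between TKA and naive rats apart from skeletal muscle genes. It had 21.4 ± 5.32 CPM in naive, 44.2 ± 44.4 CPM in sham, and 249 ± 376 CPM in TKA rats (SD, n = 6 each), and the TKA rats ranged from 39.7 to 1010 CPM. The log2 difference between TKA and naive rats was 3.55 (SE 0.71, edgeR adjusted p = 0.0942), which did not pass. This rests on TKA rat 2, which had 1010 CPM. Without it the TKA mean was 96.7 ± 40.9 CPM (SD, n = 5), and the log2 difference from naive rats was 2.17 (SE 0.26, edgeR adjusted p = 0.00143), which passed. The difference from sham rats without TKA rat 2 was 1.12 (SE 0.50, edgeR adjusted p = 0.629), which did not pass. Over the 6 TKA rats the r of *Gfap* with *Htr2b* was -0.33. *Cd14*, a lipopolysaccharide coreceptor of macrophages, was the macrophage transcript with the highest r with *Htr2b* over the 12 group-centred operated rats (0.64), and its r was 0.76 over sham rats and 0.07 over TKA rats. *Cd14* had 2.32 ± 0.656 CPM in naive, 2.05 ± 1.47 CPM in sham, and 4.45 ± 1.72 CPM in TKA rats, a log2 difference from naive rats of 0.93 (SE 0.30, edgeR adjusted p = 0.17). These genes were picked after their values were seen, and no test was made of them with *Htr2b*.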
